A study of Rattus norvegicus with 4 samples.

Results

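The 73 genes described here encode proteins of the mitochondrial ribosome and were chosen by name, as the genes whose annotated symbol starts with Mrpl or Mrps followed by a digit. They were 73 of the 14218 genes on the array, and each was read from the brightest of its probe sets by mean over the 4 arrays. The cells were ROE2, an immortalized line of oral epithelium. The line was derived from fetal tongue, at 18 days, of a transgenic Wistar rat. In every group the cells carry the large T antigen of SV40 in a temperature-sensitive form, which keeps them dividing at 33 °C and loses its activity on warming. They were grown for 24 h at 33 °C in medium with 2% serum and 10 ng/ml EGF, then moved to 37 °C for 0, 3, 6 or 9 days, day 0 being the control. Each day has 1 array and the line is the only one studied, so no difference below has a replicate check or a p-value, and day and array cannot be told apart.

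Mitochondria keep their own ribosomes, which translate the few messages of mitochondrial DNA into core subunits of the respiratory chain and ATP synthase. The proteins of these ribosomes are all encoded in the nucleus, made on cytosolic ribosomes and imported. Mammalian mitoribosomes are rich in protein. Part of their proteins descend from bacterial ribosomal proteins, and part have no bacterial counterpart and are specific to mitochondria. By textbook placement the 73 genes fell into 48 of the large subunit and 25 of the small subunit. The large subunit group held 27 genes shared with bacteria and 21 specific to mitochondria, the small subunit group 15 and 10. Mrps18a and Mrps30 were placed with the large subunit, where their proteins sit despite the names. Mrpl9, Mrpl11, Mrpl24, Mrps10 and Mrps36 were not analysed here.

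All 73 genes had a mean log2 value of 6 or more, the floor used for all genes, which 8381 genes passed. Their values ran from 6.73 to 11.95 on single arrays, above the brightest of 27 control probe sets for bacterial transcripts, at 4.56. Levels of different probe sets are not comparable with each other, so only differences between days are set side by side. All 8 markers of stratified epithelium passed the floor. Of the other cell types 0 of 7 fibroblast and 0 of 4 endothelial markers did, and 1 of 5 leukocyte markers, Cd68 at 5.32 to 6.54, and 1 of 6 muscle markers, Myh1 at 8.84 to 10.28, on a probe set whose ID carries a cross-hybridisation mark. The summed log2 values of the marker lists on days 0, 3, 6 and 9 were 17.8, 19.0, 18.9 and 19.1 for leukocytes and 30.7, 31.0, 30.7 and 29.9 for muscle. For fibroblasts they lay between 22.8 and 23.3 and for endothelium between 12.4 and 13.7. For stratified epithelium they were 90.8, 96.3, 99.1 and 98.3. On day 9 Krt13 and Krt15 were 4.24 and 2.68 above day 0, while 2 of the 8 epithelial markers were below it. The part of other cell types and of these changes in the results was not tested.

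The mitoribosomal genes were lower than on day 0 by a small amount that most of them shared. The difference was deepest on day 6 and smaller on day 9 in the deposited values, an order that turned when arrays were scaled by the spike-ins (-0.79 on day 6 and -0.94 on day 9). Their median difference from day 0 was -0.13 on day 3, -0.40 on day 6 and -0.31 on day 9 on the log2 scale, against -0.05, -0.18 and -0.13 over all 8381 genes. Relative to the median gene they thus lay at -0.08, -0.23 and -0.18. The members also kept closer together than all genes. The SD over the 73 differences was 0.26, 0.34 and 0.31 on the 3 days, against 0.54, 0.71 and 0.67 over all genes. This was not particular to them. The SD was 0.20, 0.26 and 0.26 over respiratory chain and ATP synthase genes and 0.08, 0.12 and 0.13 over cytosolic ribosomal protein genes. In bulk RNA a lower share of cells with high levels and less RNA per cell cannot be told apart.

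On day 6, 64 of 73 mitoribosomal genes were below their day 0 value, where 62.7% of all genes were. On day 9 it was 62 of 73, with 60.8% of all genes, and on day 3 it was 51 of 73, with 55.6% of all genes. The members' shares were 87.7% on day 6, 84.9% on day 9 and 69.9% on day 3. The highest of the 4 arrays was day 0 for 48 members, or 65.8%, against 44.1% of all genes. The lowest array was day 6 for 44 members, or 60.3%, against 34.6% of all genes. Day 9 was the lowest for 19 members, day 0 for 7 and day 3 for 3.

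Large differences were rare among these genes. A difference of 2-fold or more was reached on the lower side by 3 members on day 6, by 0 on day 3 and by 0 on day 9, while 7.15%, 1.80% and 5.54% of all genes reached it on those days. On the higher side 0 members reached 2-fold on days 3, 6 and 9, against 4.10%, 5.57% and 5.43% of all genes. At 1.5-fold or more, 24 members (32.9%) were lower on day 6, against 21.9% of all genes. There were 11 such members (15.1%) on day 9, against 18.7% of all genes, and 4 (5.48%) on day 3, against 9.14%. Both shares were under the background of genes above the floor. With no floor 13.8% of all genes were that much lower on day 9, so there the members' share was the higher. The day 3 background was then 7.4%. Once arrays were aligned on their median gene the day 6 count was 10 members (13.7%), against 14.7% of all genes, while the members' median stayed below that of all genes, at -0.24 against -0.02. On the higher side 0 members reached 1.5-fold on days 3, 6 and 9, where 10.0%, 11.8% and 12.0% of all genes did. The family therefore shows as a shift below 0, narrow beside all genes, and not as a set of strongly changed genes.

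**Figure D1:**
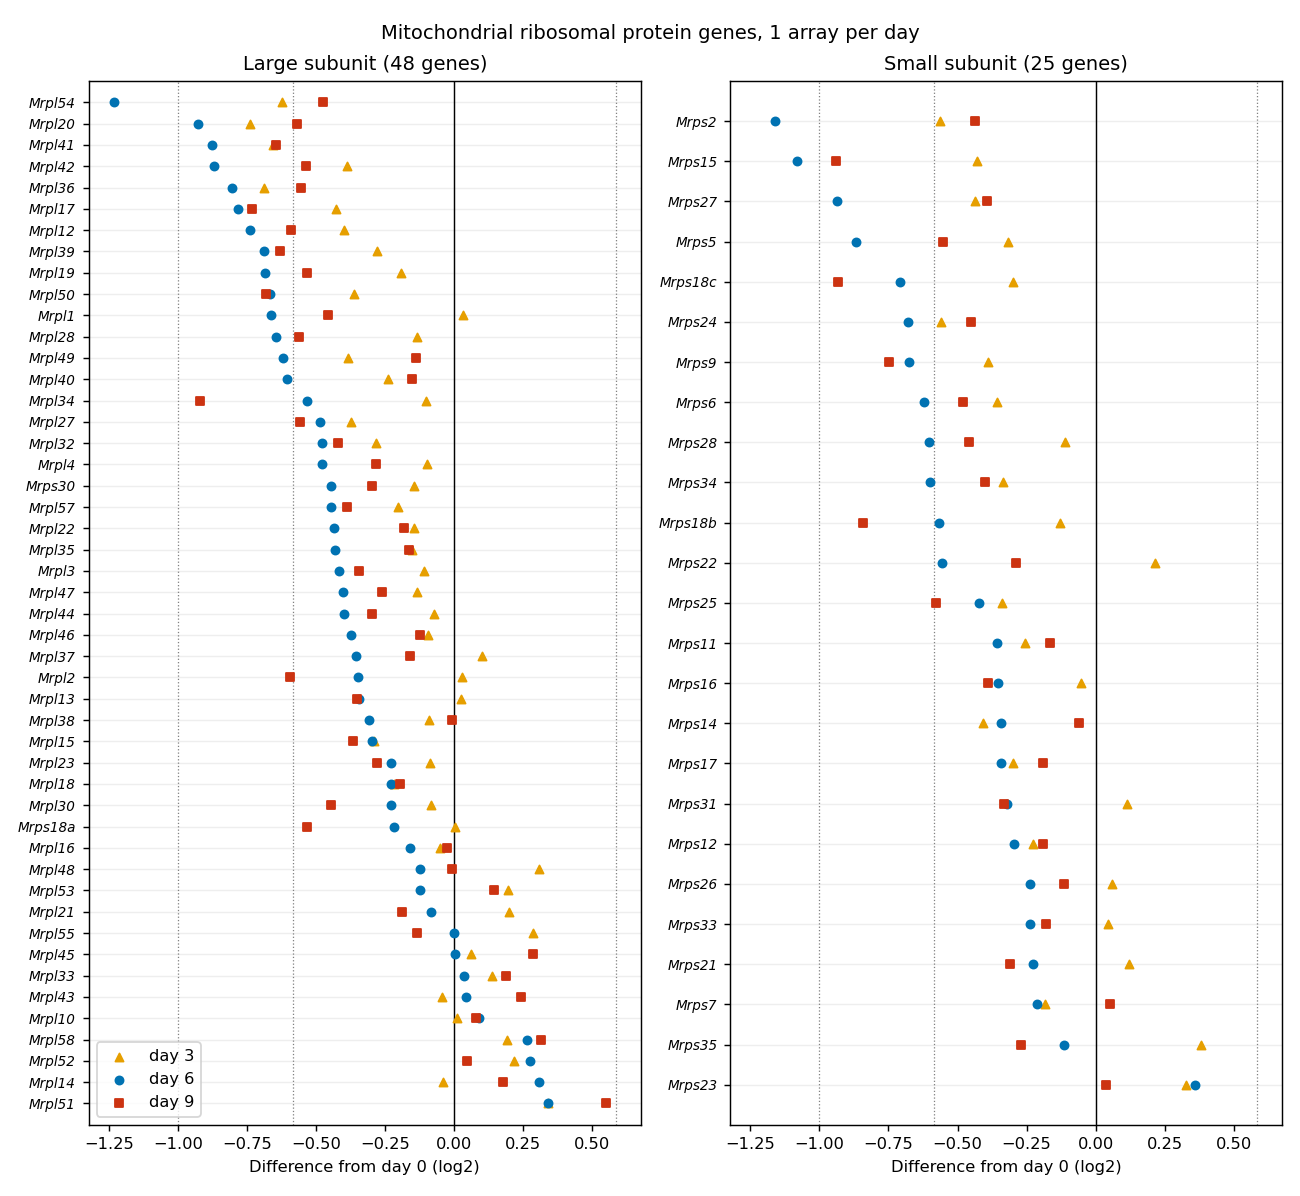
Difference from day 0 (log2, x axis) of each of the 73 genes on day 3 (triangles), day 6 (circles) and day 9 (squares), with large subunit genes on the left and small subunit genes on the right, ordered by day 6. Dotted lines mark 1.5-fold in both directions and 2-fold lower. Only Mrpl54, Mrps2 and Mrps15 lie beyond 2-fold lower, on day 6, and no point lies beyond 1.5-fold higher.

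Values of the hybridisation spike-ins, control transcripts meant to be equal on all arrays, exceeded those of day 0 by a median of 0.14, 0.39 and 0.63 on days 3, 6 and 9. If they served as the zero line, the members' median would be -0.27, -0.79 and -0.94, against -0.19, -0.56 and -0.77 for the median gene. The gap between the 3′ and 5′ probe sets of beta-actin, a measure of how complete the labelled copies are, was 2.25, 2.44, 1.22 and 2.35 on days 0, 3, 6 and 9. The day 6 array, on which most members were lowest, was thus the one with the smallest gap for actin. For GAPDH the same gap was 0.10, 0.04, -0.02 and 0.18. For hexokinase it was 1.41, 1.48, 1.45 and 1.75, so there day 6 was not the smallest. The 5′ set of hexokinase was dim, at 3.83 to 4.26. The part of these shifts in the members' differences was not tested.

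Of the 3 genes at 2-fold or more lower, Mrpl54 encodes a large subunit protein specific to mitochondria. It had log2 values of 11.32, 10.70, 10.09 and 10.85 on days 0, 3, 6 and 9, and was 2.35-fold lower on day 6 than on day 0. By day 9 it was 0.76 above day 6, the largest such difference of the family. Mrps2 encodes the counterpart of bacterial protein S2 of the small subunit and read 9.55, 8.99, 8.39 and 9.12, which made it 2.24-fold lower on day 6. Like Mrpl54 it had its low point on day 6 and stood higher on day 9, by 0.72. Another probe set of Mrps2 with a mean of 6.01 differed by 0.26 on day 6, so its fall depended on the probe set. Mrps15 encodes the counterpart of bacterial S15, which in Escherichia coli is one of the first proteins to bind small subunit rRNA. It read 9.10, 8.67, 8.02 and 8.16, was 2.12-fold lower on day 6 and, unlike the other two, stayed near that level on day 9, at -0.94 against day 0.

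The bases around the start of these genes are printed because the values of the 3 differ in course, and those of 3 further members because of what the results below say of them. Each run covers 100 bases before to 50 after the annotated start, 5′ to 3′ on the gene's strand, from RefSeq promoters of build GRCr8. Capitals mark matches to 4 short motifs of factors known to act on nuclear genes for mitochondrial proteins, searched on both strands. These were GCATGCGC for NRF1, CCGGAAG for ETS factors such as GABP, AAGATGGC for YY1 and CACGTG, the E-box bound by MYC and MAX.
Mrpl54 (chr7:9103425-9103574, plus strand): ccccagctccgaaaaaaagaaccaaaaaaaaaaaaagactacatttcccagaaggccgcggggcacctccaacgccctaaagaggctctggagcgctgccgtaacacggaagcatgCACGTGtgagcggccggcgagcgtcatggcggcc
Mrps2 (chr3:32200977-32201126, plus strand): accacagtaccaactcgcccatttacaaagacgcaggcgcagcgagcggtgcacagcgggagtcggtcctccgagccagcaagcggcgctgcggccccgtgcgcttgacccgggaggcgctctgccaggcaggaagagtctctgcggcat
Mrps15 (chr5:143606041-143606190, plus strand): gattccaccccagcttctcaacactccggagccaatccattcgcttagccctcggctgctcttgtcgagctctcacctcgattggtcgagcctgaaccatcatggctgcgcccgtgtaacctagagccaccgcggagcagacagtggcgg
Mrpl51 (chr4:159677888-159678037, plus strand): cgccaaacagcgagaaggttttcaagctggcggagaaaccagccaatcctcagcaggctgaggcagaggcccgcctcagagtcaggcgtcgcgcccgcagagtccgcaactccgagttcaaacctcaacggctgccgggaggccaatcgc
Mrpl58 (chr10:101145242-101145391, plus strand): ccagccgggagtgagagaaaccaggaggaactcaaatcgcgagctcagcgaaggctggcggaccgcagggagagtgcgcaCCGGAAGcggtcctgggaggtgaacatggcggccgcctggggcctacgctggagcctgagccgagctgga
Mrpl46 (chr1:142116981-142117130, minus strand): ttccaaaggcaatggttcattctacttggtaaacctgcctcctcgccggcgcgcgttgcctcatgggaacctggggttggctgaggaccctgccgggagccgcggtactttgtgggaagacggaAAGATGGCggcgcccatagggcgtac
Mrpl54 holds the E-box and Mrps2 and Mrps15 hold none of the 4 motifs in this window. No match says only that these letters are not there.

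On day 6 the 24 genes at 1.5-fold or more lower were 14 of the large subunit and 10 of the small subunit. After Mrpl54, Mrps2 and Mrps15 came Mrps27, a mitochondria-specific small subunit gene of the pentatricopeptide repeat type, with 8.11, 7.67, 7.17 and 7.72 on days 0, 3, 6 and 9. It was at -0.94 on day 6, and day 9 was back near day 3. Mrpl20 and Mrpl41 were at -0.93 and -0.88. Mrpl42, specific to mitochondria, read 10.35, 9.97, 9.49 and 9.82, and Mrps5, the counterpart of bacterial S5, read 8.83, 8.52, 7.97 and 8.28, both at -0.87 on day 6. In both genes day 6 was the low point and day 9 stood between day 3 and day 6. The others ran from Mrpl36 at -0.80 to Mrps34 at -0.60, among them Mrpl19, Mrpl28, Mrps6, Mrps28 and Mrpl40. Mrpl40 read 8.13, 7.89, 7.53 and 7.98 and was at -0.15 on day 9, so in the deposited values it was close to day 0 again.

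On day 9 the genes furthest below day 0 after Mrps15 were Mrps18c, Mrpl34 and Mrps18b. Mrps18c read 7.66, 7.36, 6.96 and 6.73 on days 0, 3, 6 and 9 and was at -0.93 on day 9. Mrpl34 read 9.31, 9.21, 8.78 and 8.39 and was at -0.92. Mrps18b read 9.76, 9.63, 9.19 and 8.92 and was at -0.84. In these 3 genes each later array was lower than the one before, so day 9 and not day 6 was the low point. Mrps18a, Mrps18b and Mrps18c are all relatives of bacterial protein S18. Only Mrps18c was classed as shared with bacteria, since its protein takes the place of S18, while those of Mrps18a and Mrps18b sit elsewhere and were classed as specific to mitochondria. Mrps18a read 9.96, 9.96, 9.74 and 9.43 and was at -0.53 on day 9. Another Mrps18c probe set of similar brightness differed by -0.93 on day 6 and -0.45 on day 9, so the day 9 value of Mrps18c depended on the probe set.

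Next in order on day 9 came Mrps9 at -0.75, Mrpl17 at -0.73, Mrpl50 at -0.68, Mrpl41 at -0.64, Mrpl39 at -0.63, Mrpl2 at -0.60 and Mrpl12 at -0.59, which completes the 11 genes at 1.5-fold or more. Mrps9 is the counterpart of bacterial S9, whose tail reaches the tRNA in the peptidyl site. Mrpl17 corresponds to a bacterial protein near the exit of the peptide tunnel, and Mrpl50, Mrpl41 and Mrpl39 are specific to mitochondria. The second probe set of Mrps9 was at -0.66 on day 9. Those of Mrpl12 and Mrpl50 were at -0.56 and -0.46, short of 1.5-fold, and the means over probe sets were -0.57 for each of these 2 genes, so their calls depended on the probe set.

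On day 3 the 4 genes at 1.5-fold or more lower were Mrpl20 at -0.74, Mrpl36 at -0.69, Mrpl41 at -0.66 and Mrpl54 at -0.62, all of the large subunit. Mrpl20, whose bacterial counterpart is needed early in assembly of the large subunit, read 9.76, 9.02, 8.83 and 9.19. Mrpl36, the counterpart of bacterial L36, read 10.23, 9.54, 9.43 and 9.68. Most of the difference of both genes was present by day 3, and day 9 lay above day 3 and day 6 in each. Mrps24 and Mrps2 followed at -0.56. At the other end of day 3 stood Mrps35 at 0.38, Mrpl51 at 0.34, Mrps23 at 0.33, Mrpl48 at 0.31 and Mrpl55 at 0.29. Mrps35 and Mrpl55 were at -0.27 and -0.13 on day 9.

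A few members stood above day 0. Mrpl51, a mitochondria-specific large subunit gene, read 9.28, 9.62, 9.62 and 9.83 and was the highest of the family on day 9, at 0.55. It has 4 probe sets. The second brightest was 0.42 higher on day 9, and the other two were at 0.20 and -0.06, so the size of its difference depended on the probe set. Mrpl58 encodes a peptidyl-tRNA hydrolase that sits in the large subunit and frees stalled ribosomes. It read 9.62, 9.81, 9.88 and 9.93 and was at 0.31. Mrpl45, whose protein lies at the tunnel exit and ties the ribosome to the inner membrane, read 9.96, 10.02, 9.96 and 10.24 and was at 0.28. Mrpl43 was at 0.24, Mrpl33 at 0.19, Mrpl14 at 0.17, Mrpl53 at 0.14 and Mrpl10 at 0.08. On day 6 the highest were Mrps23 at 0.36, Mrpl51 at 0.34, Mrpl14 at 0.30, Mrpl52 at 0.27 and Mrpl58 at 0.26. None of these passed 1.5-fold.

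**Figure D2:**
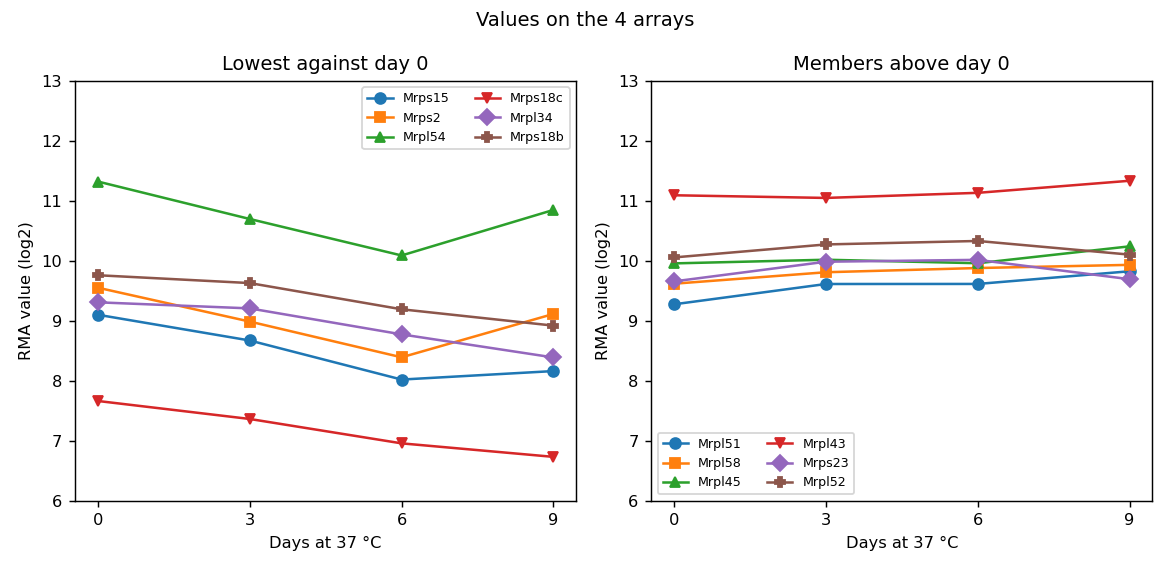
RMA values (log2, y axis) on the arrays of days 0, 3, 6 and 9 (x axis) for 6 of the genes lowest against day 0 (left) and 6 genes above day 0 on day 6 or day 9 (right), 1 line per gene. Mrpl54 and Mrps2 dip on day 6 and stand 0.76 and 0.72 higher on day 9, whereas Mrps18c, Mrpl34 and Mrps18b are lower on each later array.

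The genes named here for functional centres of the ribosome, picked after their values were seen, differed among themselves on day 6. They ran from -0.78 to 0.09 on the probe sets used. Around the peptidyl transferase centre, which joins amino acids, Mrpl2, Mrpl3, Mrpl16 and Mrpl27 were at -0.35, -0.42, -0.16 and -0.49 on day 6. In the stalk that recruits the translation factors, Mrpl12 was at -0.74, while Mrpl10, the anchor of Mrpl12 there, was at 0.09. Another probe set of Mrpl10 with a mean of 8.05 was at 0.43 on day 6, so the size of this gap depended on the probe set. Mrpl1, the counterpart of the bacterial L1 protein of the separate stalk on the side where tRNAs leave, was at -0.66. At or near the tunnel exit Mrpl17, Mrpl22, Mrpl23 and Mrpl45 were at -0.78, -0.44, -0.23 and 0.00. Mrps12, at the decoding centre of the small subunit, was at -0.30 on day 6.

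The subunits and the classes of origin overlapped widely. On day 9 the median was -0.29 over the 48 large subunit genes and -0.39 over the 25 small subunit genes. The difference of 0.10 between them turned to -0.06 when each gene took the mean of its probe sets, so neither subunit was lower under both settings. On day 6 the medians were -0.40 and -0.42, and 24 of 25 small subunit genes against 40 of 48 large subunit genes lay below day 0. Among the 4 classes the small subunit genes shared with bacteria had the lowest medians, at -0.30, -0.61 and -0.44 on days 3, 6 and 9. Of these 15 genes 15 lay below day 0 on day 6, against 62.7% of all genes, and 8 (53.3%) were 1.5-fold or more lower, against 21.9% of all genes. That count depended on the processing. With the mean over probe sets Mrps2 and Mrps24 were at -0.27 and -0.14. With arrays centred on the median gene only Mrps15, Mrps2 and Mrps5 of the 8 stayed past 1.5-fold, where 14.7% of all genes did. Small subunit genes specific to mitochondria were at 0.05, -0.37 and -0.31. The large subunit genes were at -0.11, -0.42 and -0.35 where shared with bacteria and at -0.09, -0.37 and -0.15 where specific to mitochondria. No test between classes was possible with 1 array per day.

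Of the steps between arrays, the one between day 3 and day 6 had the largest median difference. Between these arrays 65 of 73 members were lower on day 6, against 65.9% of all genes, with a median of -0.29, against -0.13 for all genes. At 1.5-fold or more 5 members were lower (6.85%), a share under the 8.41% of all genes. From day 6 to day 9 the median was 0.14 for members and 0.05 for all genes, and 50 members were higher on day 9, where 57.8% of all genes were. With arrays centred on the spike-ins this median was -0.11, so its direction depended on the scaling. Mrpl54 and Mrps2 were the 2 members 1.5-fold or more higher on day 9 than on day 6 (2.74%), near the 2.37% of all genes. Mrps27 and Mrpl49 followed at 0.54 and 0.48. At the lower end of this step were Mrpl34 at -0.38, Mrps23 at -0.32, Mrps18a at -0.31 and Mrps18b at -0.27.

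Of 18 members with more than 1 probe set, 12 had a further set with a mean of 6 or more, 14 such sets in all. On day 9, 12 of these 14 had the sign of the set used, and the median gap to it was 0.13. On day 6, 11 of 14 had the same sign, with a median gap of 0.12 and a largest gap of 1.42, which was that of Mrps2. Sets parted by 1.5-fold or more on day 9 in Mrps2, with 0.21 against -0.44, and in Mrpl51. Among sets below the floor this was so for 1 of Mrps18c and 1 of Mrps24.

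The mitoribosome was set beside cytosolic ribosomal proteins and the respiratory chain, whose core subunits it makes. The 40 cytosolic ribosomal protein genes above the floor, of 47 on the array, had medians of 0.01, -0.08 and -0.09 on days 3, 6 and 9 and 0 members at 1.5-fold or more in either direction on any of these days. The medians of the 65 of 73 nuclear genes of the respiratory chain and ATP synthase were -0.17, -0.24 and -0.13. Of these, 5 (7.69%) were 1.5-fold or more lower on day 6 and 5 on day 9, both under the 21.9% and 18.7% of all genes. On day 6, 87.7% of them lay below day 0, the same share as among members, against 62.7% of all genes. Day 0 was the highest array for 66.2% of them, 65.8% of members and 44.1% of all genes. On day 6 the mitoribosomal genes thus had the lowest median of the 3 families, at -0.40, and on day 3 the respiratory chain genes did. All of these differences share the day 0 array.

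**Figure D3:**
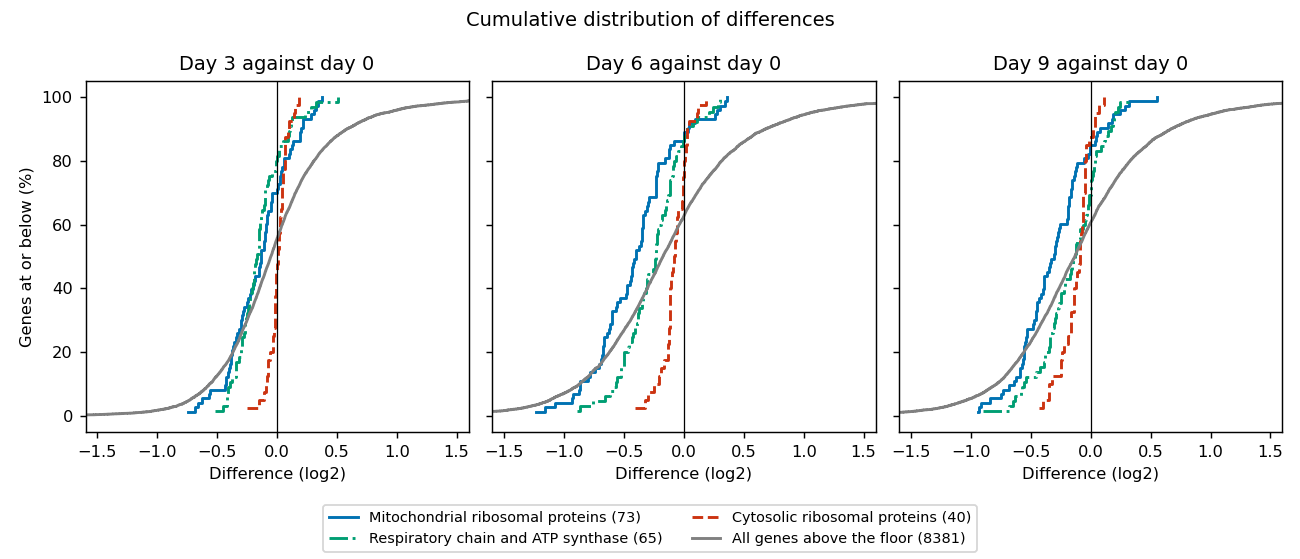
Cumulative share of genes (y axis, %) at or below a difference from day 0 (x axis, log2) on days 3, 6 and 9, for the 73 mitochondrial ribosomal protein genes, 65 respiratory chain and ATP synthase genes, 40 cytosolic ribosomal protein genes and all 8381 genes above the floor. The x axis is limited to differences within about 3-fold. On days 6 and 9 the mitoribosomal curve lies left of both other families over most of its height, and it is steeper than that of all genes.

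Other lists of genes for mitochondrial gene expression had medians below day 0 on days 6 and 9, though not in each member. Among the genes above day 0 on days 3, 6 and 9 were Mrrf, the ribosome recycling factor, at 0.56, 0.28 and 0.34, and Gfm2, Rpusd4, Trub2 and Mtg2. The counts at 1.5-fold below stand against 21.9% of all genes lower and 11.8% higher on day 6. The 5 mitoribosomal proteins with other names (Dap3, Ptcd3, Chchd1, Aurkaip1 and Gadd45gip1) had medians of -0.03, -0.41 and -0.19 on days 3, 6 and 9, and 2 of the 5 were 1.5-fold or more lower on day 6. Aurkaip1 and Dap3 were at -0.36 and -0.35 on day 9. Of 22 mitoribosome assembly genes above the floor 8 (36.4%) were 1.5-fold or more lower on day 6 and 0 higher, with medians of -0.25, -0.52 and -0.49. Among them the GTPase gene Gtpbp10 was at -0.88 and Rcc1l at -0.69 on day 9. Of 12 genes of the translation factor list 6 (50%) were lower by that much on day 6 and 0 higher, with medians of -0.26, -0.58 and -0.40. The list was mixed, since Lrpprc, Slirp, Oxa1l and Mtfmt in it are not translation factors in the strict sense. Lrpprc and Slirp, at -0.90 and -0.66 on day 6, were among the 6, and Oxa1l and Mtfmt, at 0.03 and -0.28, were not. With the mean over probe sets, which left 10 of the 12 genes, the day 6 median was -0.30, against -0.36 for members. Mtif2, the mitochondrial initiation factor, was at -0.89 on day 9 and the release factor relative Mtrfr at -0.68. The 10 genes of the mitochondrial tRNA synthetase list were at 0.11, -0.38 and -0.40. That list also held Qrsl1 and Gatc, which do not encode synthetases and were at -0.52 and -0.22 on day 6. At 1.5-fold or more lower on day 6 were 2 of the 10 (20%), near the 21.9% of all genes. Yars2 and Tars2 were at -0.58 and -0.50 on day 9.

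Genes for other steps gave a graded picture. Of 11 genes of mitochondrial DNA upkeep and transcription 6 (54.5%) were 1.5-fold or more lower on day 6 and 0 higher, against 21.9% and 11.8% of all genes, with medians of -0.23, -0.62 and -0.40. A floor of 8 left 5 of these genes, with a day 6 median of -0.25, against -0.37 for members. Ssbp1, which coats single-stranded mitochondrial DNA, was at -0.98 on day 9, and Polg2, the accessory subunit of its polymerase, at -0.70. Of 25 import and chaperone genes 11 (44.0%) were lower by that much on day 6, with medians of -0.33, -0.54 and -0.43, among them Timm9 at -1.03 and Tomm34 at -0.84 on day 9. The 15 citrate cycle genes were at -0.13, -0.23 and -0.21, with 2 (13.3%) lower on day 6, a share under that of all genes. On day 9 Suclg2, of succinyl-CoA ligase, was at -0.73 while Ogdh, of oxoglutarate dehydrogenase, was at 0.70. These lists hold genes above the floor only. With arrays centred on the median gene their day 6 medians were nearer 0. They were -0.36 for assembly, -0.42 for translation factor, -0.47 for DNA and -0.38 for import genes. For tRNA synthetase and citrate cycle genes they were -0.22 and -0.07, against -0.24 for members.

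**Figure D4:**
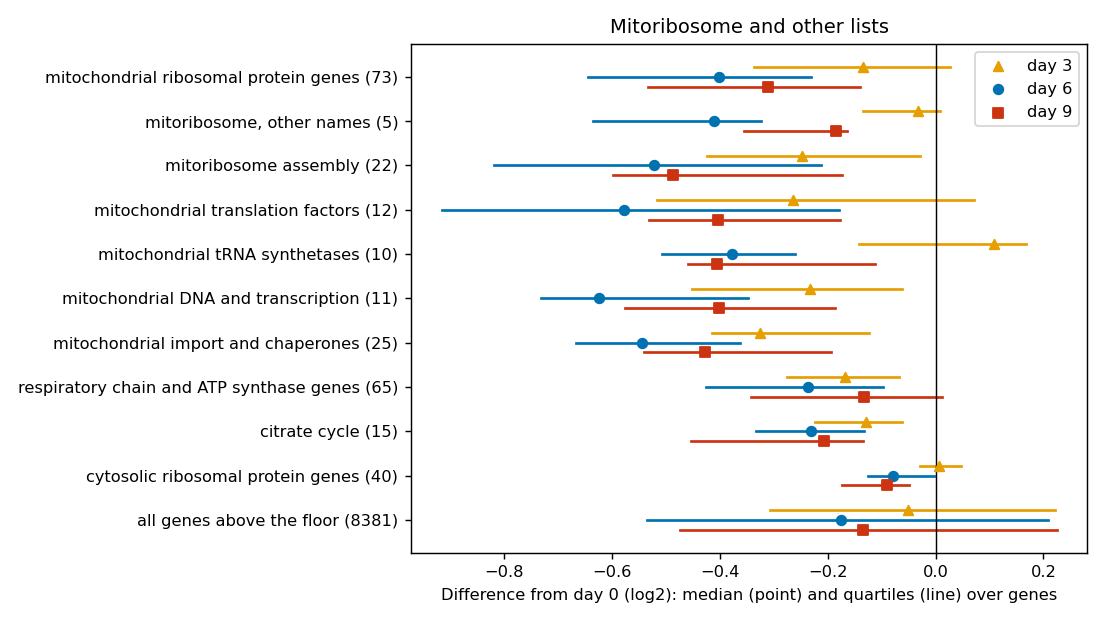
Median difference from day 0 (points, log2) and quartiles over genes (lines) on day 3 (triangles), day 6 (circles) and day 9 (squares) for the mitoribosomal genes, 7 lists of other mitochondrial genes, the respiratory chain, cytosolic ribosomal proteins and all genes, with the number of genes in brackets. The medians of the translation factor, import, assembly and DNA lists lie below that of the mitoribosomal genes on day 6, and the cytosolic ribosome lies near 0.

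The promoter table held 59 of the 73 members, with 61 promoters of 300 bases each, from 250 before to 50 after the start. The YY1 motif AAGATGGC was in 14 of the 61 (23.0%), against 6.15% of promoters of genes above the floor and 3.17% of all 33469 promoters. In 12 of the 14 it read in the gene's direction, and its first base lay between positions -220 and 30, with a median of 12, counted from 1 at the start base. The overlapping spelling ATGGCGGC was in 19.7%, against 6.74% of promoters of genes above the floor and 2.53% of all promoters. Its matches in members all read in the gene's direction and began after the start, from position 4 to 42. Both spellings contain ATG, the letters of a start codon. Whether the matches mark start codons or YY1 sites was not tested. The ETS motif CCGGAAG was in 32.8%, against 20.2% of promoters of genes above the floor and 8.75% of all, and its longer form CCGGAAGT in 13.1%, 9.53% and 3.81%. The NRF1 motif was in 8.20%, 5.54% and 2.47%, and the E-box in 9.84%, 10.1% and 6.42%. Median GC content was 56.0% for members, 61.3% for genes above the floor and 51.7% for all promoters.

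Members with and without a motif overlapped in their differences. On day 6 the 14 genes with the YY1 motif had a median of -0.52 and ran from -0.94 to -0.13, and the 45 without it had a median of -0.40 and ran from -1.23 to 0.36. The overlapping spelling ATGGCGGC gave no such gap, with -0.40 for the 12 with it and -0.42 for the 47 without. On day 9 these were -0.24 and -0.34. On day 6 the 20 with the ETS motif were at -0.28 and the 39 without it at -0.44, an order that turned on day 9, with -0.34 and -0.30. For the longer form the order did not turn, with -0.33 and -0.42 on day 6 and -0.23 and -0.33 on day 9. The 6 with the E-box were at -0.64 on day 6, the 53 without it at -0.40. Of the genes for the factors themselves, Nrf1, Yy1 and Gabpa were at -0.07, 0.13 and -0.23 on day 9, and Myc at -0.30. Max was 1.5-fold or more higher on day 9, at 0.61. The MYC antagonist gene Mxd1 read 9.22, 9.85, 10.51 and 11.22 and was at 2.00. Pprc1, which encodes a coactivator of NRF1, was at -0.65. The mRNA of a factor does not measure its activity.

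The starts of 15 members lay within 500 bases of the start of a gene on the other strand, head to head, which is 25.4% of the 59, against 15.9% of genes above the floor. Mrpl46 and Mrps11 face each other with 234 bases between their starts, and the window of Mrpl46 above holds the YY1 motif from position 25. Mrpl46 read 8.67, 8.57, 8.30 and 8.55, and Mrps11 read 9.19, 8.94, 8.83 and 9.03 on days 0, 3, 6 and 9. In the deposited values both were lowest on day 6, at -0.37 and -0.36, and close to day 0 again on day 9, at -0.12 and -0.17. This return depended on the scaling, since the spike-ins lay 0.39 above day 0 on day 6 and 0.63 on day 9. Mrpl51 and the condensin gene Ncapd2 start 50 bases apart and did not move alike. Mrpl51 was at 0.34 and 0.55 on days 6 and 9, and Ncapd2 was at -0.65 and -1.15, with values of 8.02, 7.87, 7.37 and 6.87. Mrps27 and Ptcd2, which encodes a mitochondrial RNA-binding protein, start 91 bases apart. They were at -0.94 and -0.47 on day 6.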

How the data were processed

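Each day had 1 Affymetrix rat array with probes near the 3′ end of transcripts, labelled from 500 ng of total RNA with integrity numbers between 9.5 and 10, per the labels' protocols. The deposited values are log2 intensities that the authors computed by RMA (per the submitters' processing notes), a method that removes background, gives all arrays 1 distribution and summarises probes. Total RNA per cell is therefore not measured. The software behind RMA and its version are not given in the sources used. That the logs are to base 2 follows from their range only. The annotation gave 1 symbol for 20832 of 31099 probe sets, several for 436 and none for 9831, and 20764 Entrez identifiers were found in RefSeq.

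A gene took its brightest probe set by mean over the 4 arrays, and genes with a mean of 6 or more were compared. Differences are day minus day 0 on the log2 scale, and sizes of 1.5-fold and 2-fold were counted, with no test. The number of arrays limits the precision. The counting by size was run on simulated arrays with chosen shifts and chosen noise. The noise of the real arrays is unknown without replicates, so this says nothing of how reliable the counts are. The members, lists, motifs and the rule for named genes were chosen with earlier results of these data known. Named members were those past 2-fold, the extremes of each day and step, the brightest and dimmest, those whose probe sets part by 1.5-fold on day 9, those past 1.5-fold, members of functional centres and head-to-head pairs. The last 3 kinds, and the regulator genes other than Mxd1 and Pprc1, were added after their values were seen. Of each other list the 2 genes with the largest size on day 9 were named. Cytosolic ribosomal protein names exclude the S6 kinases, and respiratory chain names exclude assembly factors. Alternatives were other floors, probe set rules, scalings, thresholds and the mean over members. Tools were pandas 2.3.3 and numpy 2.4.6 in Python 3.11.15, with matplotlib 3.10.9 for plots.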

Additional observations from a re-analysis of the deposited data

How the results depend on the processing

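Of 75 recomputed summary values, 58 kept their direction and stayed close to the reported value. Close meant within 1.5-fold for counts and inside a range drawn over genes for medians, which is not a spread over replicates. The floor (none, 6 or more on at least 1 array, or a mean of 8 or more), probe sets without a cross-hybridisation or transcript mark, a further quantile normalization and the mean over members moved none of the member summaries they were run on. All 73 members passed the main floor, so the 8 values under each of the first 2 floors could not change and are no check. Centring moves all genes of an array alike. The difference between subunits, 0.10, therefore could not change when arrays were centred on the median gene or the spike-ins, which is no check either. The background did change. With no floor the day 6 median of all genes was -0.04, and 13.8% were 1.5-fold or more lower on day 9. With arrays centred on the median gene the day 6 median was -0.24, and the counts at 1.5-fold lower were 10 on day 6 and 6 on day 9, with 14.7% and 13.5% of all genes. Under spike-in centring the medians were -0.27, -0.79 and -0.94 on days 3, 6 and 9, the counts were 58 on day 6 and 64 on day 9, against 48.5% and 64.4% of all genes, and the day 9 against day 6 median reversed to -0.11. Averaging a gene's probe sets, which left 70 members above the floor, gave a day 9 count of 7 (10.0%, against 16.3% of all genes), and the difference between subunits reversed to -0.059. At 2-fold the counts on days 3, 6 and 9 were 0, 3 and 0, and at 1.2-fold 25, 50 and 43, which is 34.2%, 68.5% and 58.9% of members against 28.9%, 43.3% and 40.3% of all genes. Among single members, Mrps2 was at -0.27, Mrps24 at -0.14 and Mrps27 at -0.33 on day 6 with the mean over probe sets. No paired analysis was possible because each day has 1 array. The causes of these shifts beyond the settings themselves were not tested.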
